A study of Mus musculus with 8 samples.

Results

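The SIBLING genes (small integrin-binding ligand, N-linked glycoproteins) were followed in the molars of mice with and without Wdr72. They are Dspp, Dmp1, Ibsp, Mepe and Spp1, 5 of the 54532 genes in the deposited read-count table, taken by gene symbol. Of these 5, 4 passed the filter on low counts and Mepe did not. Wdr72 encodes a protein of ameloblast vesicle traffic, and mutations in it lead to soft, poorly mineralised enamel. The RNA came from the first molars of C57BL/6 pups, labelled as enamel organ cells and epithelially derived ameloblasts, the cells that lay down enamel. The pulp had been removed and the rest of the molar was homogenised. There were 4 wild-type (WT 2, 3, 4 and 5) and 4 Wdr72-/- libraries (KO 1, 3, 4 and 5), with no other allele or treatment named. Their age is labelled as postnatal day 12, while dissection is described at day 13. Which stretch of Wdr72 was removed, and whether a library is 1 pup or a pool, is not stated, so the p-values reflect only how far these libraries vary.

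SIBLING proteins are acidic, heavily phosphorylated secreted proteins of mineralised tissue. They carry an RGD sequence that integrins bind, are phosphorylated by the secretory kinase Fam20c, and are cut by proteases into fragments that either seed or restrain mineral. In teeth, Dspp and Dmp1 are best known from odontoblasts, the cells that make dentin, while Ibsp is typical of osteoblasts and cementoblasts and Mepe of osteocytes. Spp1 (osteopontin) is made by bone cells and also by osteoclasts and macrophages. The molars therefore hold several cell types that can supply these transcripts, and in such bulk RNA fewer cells of a type and less RNA per cell cannot be told apart.

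The members lie head to tail on the plus strand of chromosome 5, within 270.3 kb (GRCm38 coordinates, as in the deposited table). Dspp (ENSMUSG00000053268) spans 104170712 to 104180127. Dmp1 (ENSMUSG00000029307) spans 104202613 to 104214102. Ibsp (ENSMUSG00000029306) spans 104299171 to 104311469. Mepe (ENSMUSG00000053863) spans 104325329 to 104338611, and Spp1 (ENSMUSG00000029304) spans 104435118 to 104441050. The gap from Dspp to Dmp1 is 22485 bases and that from Ibsp to Mepe 13859 bases, whereas 85068 and 96506 bases separate Dmp1 from Ibsp and Mepe from Spp1. Of the members, Spp1 overlapped another gene with reads, Gm42793, which had 37 reads against 23168.

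Promoter windows from RefSeq (GRCm38.p6, 250 bases before to 50 after an annotated start) were matched by symbol for Dmp1, Ibsp, Mepe and Spp1, 4 of the 5 members. They are shown because the members share a layout next to the start that the choice of genes did not use. Each line gives 72 bases on the plus strand, 5′ to 3′. Capitals mark ATTGG, which is CCAAT read on the other strand, and the TTTAAA or TTTATA that follows it.
Dmp1, chr5:104202540-104202611: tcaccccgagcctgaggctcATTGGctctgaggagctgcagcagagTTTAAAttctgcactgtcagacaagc
Ibsp, chr5:104299213-104299284: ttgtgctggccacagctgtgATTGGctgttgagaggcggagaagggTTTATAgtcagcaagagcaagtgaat
Mepe, chr5:104325288-104325359: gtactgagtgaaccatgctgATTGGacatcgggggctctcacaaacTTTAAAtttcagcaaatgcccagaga
Spp1, chr5:104435045-104435116: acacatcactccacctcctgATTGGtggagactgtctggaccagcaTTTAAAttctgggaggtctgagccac

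In all 4 genes the first bases of the 2 motifs lay 26 bases apart. ATTGG began 57 bases before the annotated start in Dmp1, 54 in Ibsp, 46 in Spp1 and 21 in Mepe. In Mepe the second motif began at position 6 after the start, counted from 1 at the start site, and in the other 3 genes it lay before the start. The motifs, the spacing and the stretch searched were chosen after the sequences had been read. The match is therefore a description, and the 4 members were bound to be among the genes found. A wider search took ATTGG followed within 50 bases by either second motif, both before the start. It found 276 of 32851 windows (0.84%), among them 3 of the 6 windows of members but not that of Mepe. Across the whole RefSeq table, 13 of 27025 genes (0.0481%) had this pair at this spacing in any window, read on the gene's own strand, and 4 of the 13 were SIBLING genes. The other 9 were Sost, Mbd3, Vsnl1, Olfr776, Olfr799, Gm30256, Gm33539, Gm40986 and Gm42352. Searched alone on either strand, CCAAT was in 37.4% of the 32851 windows, TTTAAA in 13.2% and TTTATA in 13.6%. The other annotated windows of Dmp1 and Spp1 did not hold the pair.

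The libraries held 17084475 to 21887462 counted reads. Of 16205 genes that passed the filter on low counts, 5 (0.0309%) passed an adjusted p of 0.05 in edgeR's quasi-likelihood test of KO against WT. Wdr72, on which the labels rest, had 173, 245, 327 and 227 CPM (counts scaled to the TMM-adjusted library size) in WT 2, 3, 4 and 5, against 102, 37.8, 24.9 and 15.8 CPM in KO 1, 3, 4 and 5. Each KO library was below each WT library. The 8 ameloblast markers were all tested and summed to 53399 to 97696 CPM in WT and 59716 to 81170 CPM in KO, with Ambn, which encodes the enamel protein ameloblastin, as the most abundant. All 10 odontoblast and dentin markers were also tested, with sums of 29789 to 57803 CPM across WT libraries and 40852 to 64390 CPM across KO libraries. Most of each sum was Col1a1 and Col1a2, which gave 17059 and 12469 of the 31607 CPM of WT 2. In KO 4 these collagens gave 37326 and 23687 of 64390 CPM. Any other marker of this list had at most 1422 CPM (Phex in WT 5), and Col1a1 is on the osteoblast list too. Log2 fold changes of the 10 ran from -0.16 (Phex) to 0.73 (Smpd3), 8 above and 2 below 0. The deviation of a library's log2 counts from the mean correlated across genes with GC content at a Spearman rho of -0.46 to -0.17 in WT and of -0.057 to 0.39 in KO. The 11 markers of pulp and follicle mesenchyme summed to 3657 to 5878 CPM in WT and 5588 to 8067 CPM in KO, with 10 above 0, 7 of them at an unadjusted p of 0.05 in edgeR and 6 with groups apart. In edgeR 0 of these 11 passed, while DESeq2 called 7 and limma voom 8. The 9 of oral keratinocytes summed to 658 to 1274 CPM and 531 to 787 CPM, and all 9 were below 0, 8 at an unadjusted p of 0.05, with Krt1 past the threshold in edgeR (adjusted p = 0.040), 7 called by DESeq2 and 8 by limma voom. Among all tested genes 53.1% had a log2 fold change above 0, and 8.7% were higher and 6.98% lower at that unadjusted p. All KO values lay above all WT values in 5.5% of genes, while DESeq2 called 2.46% and limma voom 6.57%. Over all genes, within-group pairs that held KO 5 differed by a chi-square per gene of 57.2 to 92.6, against 17.5 to 21.3 for the other KO pairs, and pairs that held WT 5 by 31.9 to 57.4, against 15.4 to 29.2 for the other WT pairs. The Xist level was 251 to 839 CPM in WT and 177 to 356 CPM in KO.

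Per kilobase of gene length, Dspp far exceeded the other members in all 8 libraries. Dspp encodes the precursor that is cut into dentin sialoprotein and dentin phosphoprotein, the main non-collagen proteins of dentin. On this scale its mean level was 3089 ± 1160 RPKM (CPM divided by the gene's length in kilobases) in WT and 2946 ± 933 in KO (SD, n = 4 each). It ranked 11 among the 14250 tested protein-coding genes. It supplied 86.7% to 96.5% of the summed per-kilobase level of the 5 members, although the labelled cells are ameloblasts.
Ibsp followed at 95.1 ± 12.02 in WT and 128 ± 17.9 in KO, and Spp1 at 74.8 ± 26.5 and 102 ± 23.96 RPKM. Dmp1 was at 24.6 ± 4.58 and 24.02 ± 2.15, and Mepe at 0.209 ± 0.113 and 0.344 ± 0.233. Within a library, Dspp was 14.0 to 46.9 times Ibsp, Spp1 was 1.23 to 5.68 times Dmp1, and Dmp1 was 38.6 to 308 times Mepe on this scale. The order of Ibsp and Spp1 was less clear, since their ratio ran from 0.999 to 2.68 and Ibsp was the higher in 7 of 8 libraries.

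**Figure D1:**
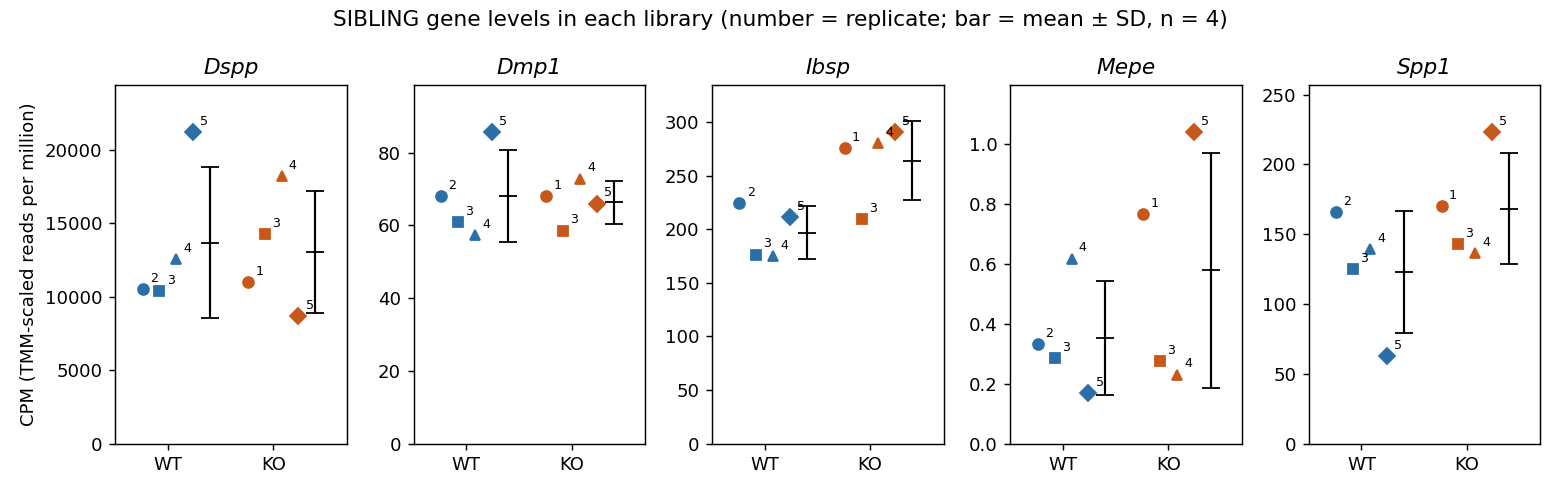
CPM of each SIBLING gene in 4 WT (blue) and 4 KO (orange) libraries, with the replicate number beside each point and the mean ± SD beside each group. Axes start at 0 and differ between genes. The groups overlap for all 5 genes, and WT 5 is the highest library for Dspp and the lowest for Spp1.

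In the comparison of KO with WT, 0 of the 4 tested members passed an adjusted p of 0.05 in edgeR's quasi-likelihood test. At an unadjusted p of 0.05 there was 1 of 4, Ibsp, while 15.7% of all tested genes passed that mark, 8.7% with a higher and 6.98% with a lower level in KO. A log2 fold change above 0 was found for 2 of the 4, Ibsp and Spp1, and for 53.1% of all tested genes. DESeq2 called none of the members and 2.46% of the genes to which it gave an adjusted p. Limma voom called Ibsp and 6.57% of all tested genes. None of the 5 members had 4 KO values apart from the 4 WT values, whereas 5.5% of tested genes had all KO values above and 5.44% all KO values below. The median log2 fold change over all tested genes was 0.021, so the values below stand close to their own 0.

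Dspp, the dentin gene, was level between the groups and variable within them. It was at 10525, 10381, 12592 and 21242 CPM in WT 2, 3, 4 and 5, against 11005, 14270, 18225 and 8710 CPM in KO 1, 3, 4 and 5. The highest library was thus a WT and the lowest a KO, with a 2.44-fold range, and the other 6 were interleaved. The means were 13685 ± 5138 and 13052 ± 4135 CPM (SD, n = 4 each). The log2 fold change was -0.068 (SE 0.28, adjusted p = 0.92 in edgeR), and a two-sided exact permutation test with 70 arrangements gave p = 0.86. The log2 fold change was 0.23 (SE 0.24) without WT 5, 0.0066 without KO 1 and 0.082 without KO 5, so the sign rested on single libraries.

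Dmp1, a collagen-binding protein of odontoblasts and osteocytes whose loss causes rickets with low phosphate, had the smallest range over all 8 libraries, 1.497-fold, although Ibsp varied less among the WT libraries (1.28-fold). Its levels were 68.0, 60.9, 57.3 and 85.8 CPM in WT 2, 3, 4 and 5, against 68.0, 58.6, 72.9 and 66.0 CPM in KO 1, 3, 4 and 5. The 4 KO values all lay inside the WT range. The log2 fold change was -0.034 (SE 0.14, adjusted p = 0.92 in edgeR), with an exact permutation p of 0.86. Without WT 5 it was 0.098 (SE 0.12).

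Ibsp, bone sialoprotein, which can seed hydroxyapatite, showed the difference with the smallest p among the members. It was at 224, 176, 175 and 211 CPM in WT 2, 3, 4 and 5, against 276, 210, 280 and 291 CPM in KO 1, 3, 4 and 5. KO 1, 4 and 5 lay above each WT library, while KO 3 lay just under WT 5 and WT 2. The means were 197 ± 24.9 and 264 ± 37.0 CPM (SD, n = 4 each), a ratio of 1.34. The log2 fold change was 0.43 (SE 0.14), with an unadjusted p of 0.010 and an adjusted p of 0.21 in edgeR, so it did not pass. A log2 fold change of this size or larger was found in 9.07% of all tested genes. The exact permutation test, two-sided, gave p = 0.086. In limma voom with quality weights the log2 fold change was 0.42 and passed (adjusted p = 0.044). Across 18 other settings the log2 fold change was 0.31 to 0.51, at adjusted p values between 0.044 and 0.73. The highest came from edgeR with a replicate block, whose contrast rests on the shared replicate numbers 3, 4 and 5 alone. With offsets for GC content and length, chosen after seeing the data, it was 0.44 (adjusted p = 0.14 in edgeR). Of 12 osteoblast and osteocyte markers, 10 were tested and 9 of those had a log2 fold change above 0. In edgeR 0 of these 10 passed and 7 were higher at an unadjusted p of 0.05, while DESeq2 called 3 and limma voom 4, against 8.7% of all genes higher at that unadjusted p. Their summed level was 20036 to 37017 CPM in WT and 26274 to 42713 CPM in KO, of which Col1a1 made up 75.0% to 87.4%. Without Col1a1, which is also an odontoblast marker, the other 9 summed to 3568 to 4712 CPM (WT) and 4431 to 6563 CPM (KO), with KO 3 the lowest and KO 5 the highest KO library, as for Ibsp. None of the 12 was without reads, although Sost and Fgf23 did not pass the filter. Of 9 cartilage markers 7 were tested, with 6 above 0, 5 of them at an unadjusted p of 0.05, 3 with groups apart and 0 past the threshold in edgeR (3 called by DESeq2 and 3 by limma voom). Over all tested genes 5.5% had all KO values above all WT values, while DESeq2 called 2.46% and limma voom 6.57%. Summed over the cartilage markers, WT libraries held 930 to 1774 CPM and KO libraries 1457 to 2034 CPM. Nearly all of this was Col11a2, which alone gave 862 to 1696 CPM across WT libraries and 1353 to 1921.5 CPM across KO libraries. Like Dspp, Col11a2 was highest in WT 5 and KO 4 within their groups. No other tested cartilage marker exceeded 71.6 CPM (Col9a2 in KO 5), so the sum mostly gives the level of 1 gene. The part of these markers, or of the pulp and follicle mesenchyme markers given above, in the Ibsp difference was not tested.

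Spp1, which encodes osteopontin, an inhibitor of crystal growth and an anchor for osteoclasts, had a similar fold change with a wider spread. It was at 166, 125, 140 and 62.8 CPM in WT 2, 3, 4 and 5, against 170, 143, 137 and 223 CPM in KO 1, 3, 4 and 5. WT 5 was low and KO 5 high, and the remaining 6 libraries lay between 125 and 170 CPM with the groups mixed. These are the libraries that stood apart from their groups over all genes. The means were 123 ± 43.7 and 168 ± 39.5 CPM (SD, n = 4 each). The log2 fold change was 0.45 (SE 0.25, adjusted p = 0.40 in edgeR), with an exact permutation p of 0.17. Without WT 5 it was 0.23 (adjusted p = 0.56 in edgeR) and without KO 5 it was 0.28 (adjusted p = 0.74).

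Mepe, a gene of osteocytes whose ASARM peptide restrains mineral, was near the limit of detection. It had 6, 6, 13 and 3 reads in WT 2, 3, 4 and 5, against 14, 6, 5 and 20 reads in KO 1, 3, 4 and 5. The exact Poisson interval at 95% was 0.619 to 8.77 reads for WT 5 and 12.2 to 30.9 reads for KO 5, which covers counting error only. With the low-count filter lifted, the log2 fold change was 0.68 (SE 0.56, adjusted p = 0.59 in edgeR). With 1 library left out it ran from 0.24 to 1.1. It was -0.47 without KO 1 and KO 5, but these held the most Mepe reads among the KO libraries, so a fall was built in. No difference in Mepe was detected at this depth. Sost and Fgf23, which are also typical of osteocytes, likewise failed the filter on low counts.

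**Figure D2:**
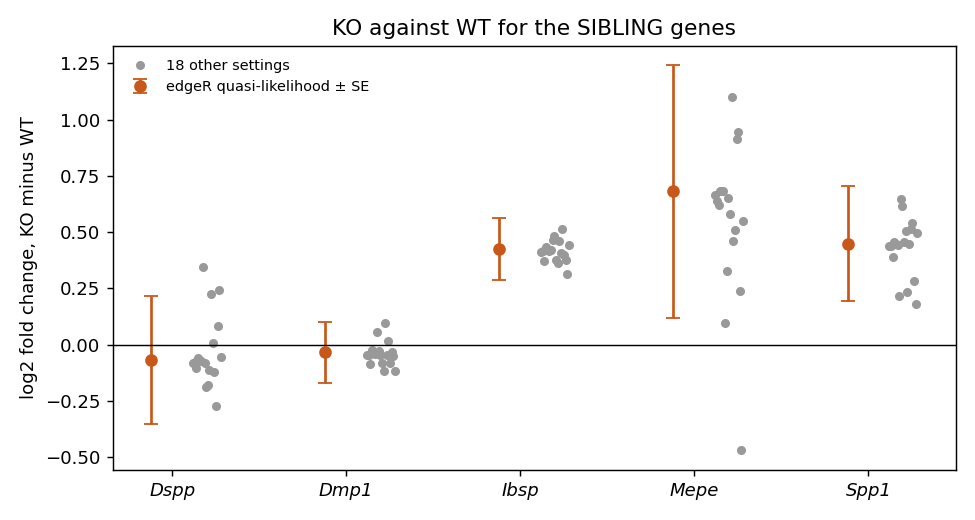
Log2 fold change of KO minus WT for the 5 SIBLING genes, with the edgeR estimate ± SE in orange and 18 other settings in grey, fitted without the low-count filter for Mepe. Ibsp and Spp1 lie above 0 in all 18, while Dspp lies above 0 in 5 and Dmp1 in 3.

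Library by library, Dspp ran opposite to Spp1 and Mepe alongside Spp1, though none of the 10 pairs passed an exact permutation test after adjustment. Over the 8 libraries the Pearson correlation of log2 CPM was -0.81 between Dspp and Spp1 (exact permutation p = 0.0081, adjusted p = 0.073 over 10 pairs), and the Spearman correlation was -0.60 (exact permutation p = 0.13, adjusted p = 0.38). Without WT 5 and KO 4, the libraries farthest from the median of Dspp, r was -0.64 with an exact permutation p of 0.16. With each group centred on its own mean, r was -0.90, a value that did not depend on the group difference. A permutation of the 8 centred values gave an adjusted p of 0.013. That p is not exact and can be too small, because centred values cannot be swapped freely between groups. Mepe and Spp1 gave r = 0.76 (exact permutation p = 0.015, adjusted p = 0.073) and rho = 0.83 (exact permutation p = 0.015, adjusted p = 0.14), and r = 0.58 without KO 1 and KO 5. Dspp and Mepe gave r = -0.75 (exact permutation p = 0.035, adjusted p = 0.12) and rho = -0.79 (exact permutation p = 0.028, adjusted p = 0.14), and r = -0.52 without WT 5 and KO 4. The odontoblast genes Dspp and Dmp1 gave r = 0.59 (exact permutation p = 0.13, adjusted p = 0.29) and rho = 0.38 (exact permutation p = 0.36, adjusted p = 0.51), and r turned to -0.68 without WT 5 and KO 4, so it rested on those libraries. For the other 6 pairs the adjusted p of r ran from 0.29 to 0.83.

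The genes whose log2 CPM followed each member most closely were looked up among 11180 protein-coding genes with a mean of at least 5 CPM. These r values were picked as the highest of many and are given as a description. For Dspp they were Kcnj2, an inward-rectifier potassium channel (r = 0.989), Phex, an endopeptidase of odontoblasts and osteocytes that acts on SIBLING peptides (r = 0.987), and the transcription factor Sall1 (r = 0.983). Phex was at 718, 627, 812 and 1422 CPM in WT 2, 3, 4 and 5, against 668, 902, 1154 and 480 CPM in KO 1, 3, 4 and 5. Like Dspp it was highest in WT 5 and KO 4 and lowest in KO 5. For Spp1 they were Acp5, the tartrate-resistant acid phosphatase of osteoclasts (r = 0.976), Slc37a2, a sugar-phosphate transporter (r = 0.975), and Siah1a (r = 0.967). Acp5 was at 108, 74.0, 75.8 and 35.0 CPM in WT 2, 3, 4 and 5, against 115, 94.0, 77.1 and 192 CPM in KO 1, 3, 4 and 5, so that its lowest and highest libraries were those of Spp1.

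Summed osteoclast markers had their lowest and highest values in the libraries where Spp1 did. Of 10 osteoclast markers, 8 were tested and 7 of them had a log2 fold change above 0, with 0 past the adjusted threshold in edgeR, DESeq2 or limma voom and 1 at an unadjusted p of 0.05 in edgeR. None was without reads, and Calcr and Siglec15 did not pass the filter. Their summed level was 270 to 499 CPM in WT and 405 to 703 CPM in KO, with WT 5 and KO 5 as the extremes. Acp5, named above as the closest gene to Spp1, is part of this sum. Itgb3, the 1 tested marker below 0, was at 87.5 CPM in WT 5 and was lowest in KO 5, at 48.0 CPM. The 12 macrophage and leukocyte markers were all tested and 11 lay above 0, at a summed 167 to 186 CPM (WT) and 198 to 284 CPM (KO), with 0 past the threshold in edgeR, 6 higher at an unadjusted p of 0.05, and 2 called by DESeq2 and by limma voom. Of all tested genes 53.1% lay above 0 and 8.7% were higher at that unadjusted p, while DESeq2 called 2.46% and limma voom 6.57%. Whether either cell type has a part in the Spp1 values was not tested.

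For Ibsp the 3 closest genes were Adamts1, a secreted metalloproteinase (r = 0.978), Tnn, a tenascin of bone and periodontal matrix (r = 0.975), and Fam69c (r = 0.965). Tnn was at 60.8, 40.6, 31.6 and 59.3 CPM in WT 2, 3, 4 and 5, against 86.4, 59.6, 91.2 and 105 CPM in KO 1, 3, 4 and 5. As with Ibsp, KO 3 was the library that fell among the WT values. Fam69c is uncertain because an overlapping gene had 13.3% as many reads. For Dmp1 they were Abi3bp (r = 0.978), the transglutaminase Tgm1 (r = 0.965) and the plasminogen activator Plat (r = 0.942). The list for Mepe, led by 1810022K09Rik (r = 0.960) with Cox16 (r = 0.956) and Cdk5 (r = 0.954), rests on 3 to 20 Mepe reads a library and shows little. The first of them is uncertain, since E2f5 overlaps it with 49.2% as many reads.

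**Figure D3:**
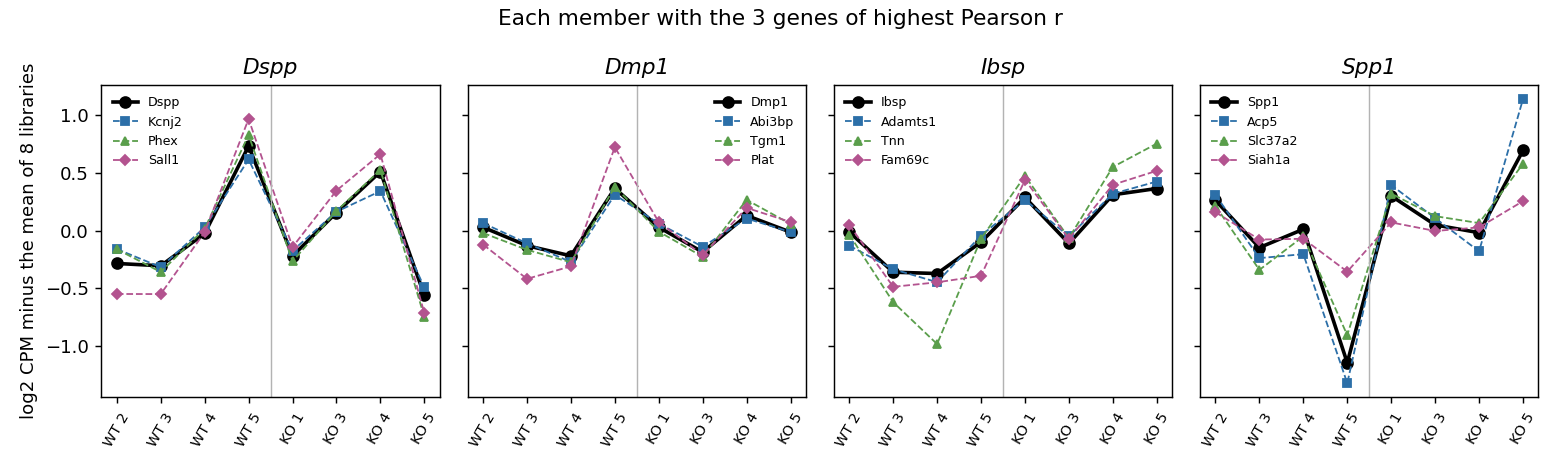
Log2 CPM minus the mean of the 8 libraries for Dspp, Dmp1, Ibsp and Spp1 (black) and the 3 genes with the highest Pearson r to each (dashed), with libraries on the horizontal axis and a grey line between WT and KO. Dspp and its companions peak in WT 5 and KO 4, while Spp1 and its companions are lowest in WT 5 and highest in KO 5.

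Ratios of 2 members within a library do not depend on scaling. Of 10 such pairs, Dmp1 to Ibsp was the only one with groups that did not overlap. Its log2 ratio of reads was -1.72, -1.53, -1.61 and -1.30 in WT 2, 3, 4 and 5, against -2.02, -1.84, -1.94 and -2.14 in KO 1, 3, 4 and 5. The difference was -0.44 on the log2 scale (exact permutation p = 0.029, the lowest possible with 70 arrangements). With the exact permutation p adjusted for the 10 pairs it was p = 0.29, so it did not pass. Of all tested genes, 16.4% had a ratio to Ibsp that was lower in all KO than in all WT libraries, and 0.272% one that was higher. For the other 9 pairs the exact permutation p ran from 0.23 to 0.94. Such ratios can still follow GC content, with which counts in WT and KO libraries correlated differently, as given above. With the GC and length offsets in edgeR the log2 fold changes were -0.12 for Dmp1 and 0.44 for Ibsp. The ratios themselves were not corrected for GC content.

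The members were also set against Col1a1, the main collagen of dentin and bone, a ratio chosen after the values had been seen. Col1a1 had a log2 fold change of 0.52 (SE 0.27, adjusted p = 0.37 in edgeR). Dspp had 61.7%, 63.1%, 71.4% and 65.8% as many reads as Col1a1 in WT 2, 3, 4 and 5, against 33.3%, 48.3%, 48.8% and 44.2% in KO 1, 3, 4 and 5. The 4 KO values lay below the 4 WT values, and WT 5, the highest library for Dspp itself, was within the WT range of this ratio. The log2 ratio differed by -0.60 (exact permutation p = 0.029, the smallest possible; adjusted p = 0.14 over 5 ratios), which did not pass. Among all tested genes 7.16% had 4 KO ratios to Col1a1 under the 4 WT ratios, and 0.037% had them above. The Dspp to Col1a1 ratio was not corrected for GC content, and the part of GC content in it was not tested. Dmp1 had 0.340% ± 0.0581 as many reads as Col1a1 in WT and 0.234% ± 0.0678 in KO (SD, n = 4 each), with KO 5 inside the WT range and an exact permutation p of 0.086 (adjusted p = 0.21). The ratios of Ibsp, Mepe and Spp1 to Col1a1 had exact permutation p values of 0.71, 1.0 and 0.94.

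**Figure D4:**
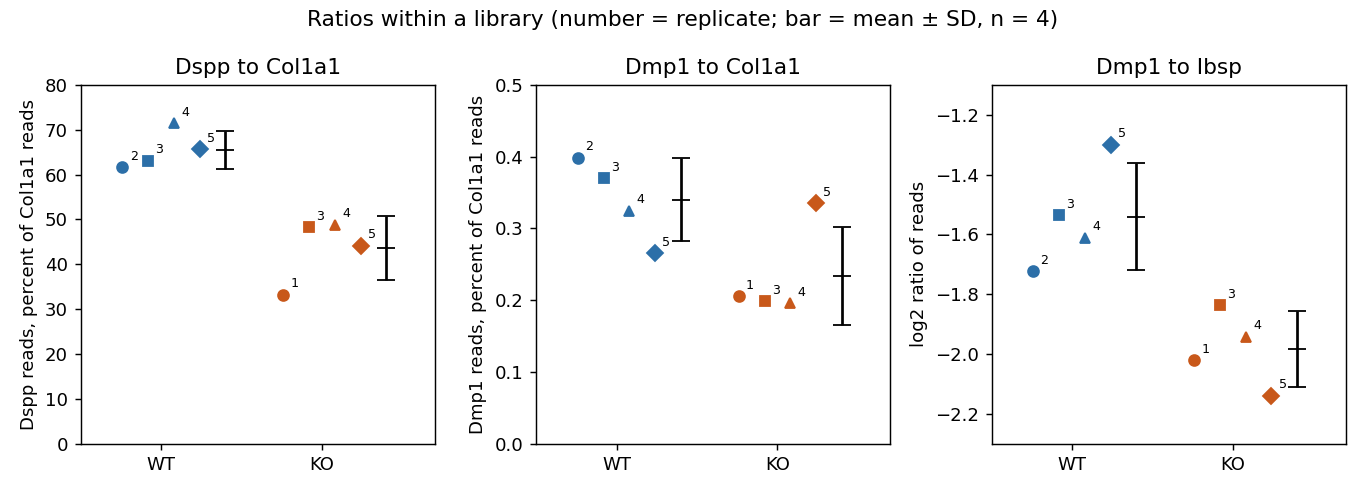
Reads of Dspp and of Dmp1 as a percent of Col1a1 reads, and the log2 ratio of Dmp1 to Ibsp reads, in each library, with mean ± SD beside each group. Dspp sits at 61.7% to 71.4% of Col1a1 in WT and 33.3% to 48.8% in KO, and the Dmp1 to Ibsp ratio is lower in each KO library.

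Of 18 genes whose products modify or cut SIBLING proteins, 16 were tested, 11 above and 5 below 0, with a median log2 fold change of 0.21. None passed in edgeR. With an unadjusted p under 0.05 there were 5 higher and 0 lower, against 8.7% and 6.98% of all tested genes. DESeq2 called 1 (Mmp2) and limma voom 2 (Mmp2 and Pcolce), all higher in KO, against 2.46% and 6.57% of all genes in either direction. Mmp2, a gelatinase that can cut dentin sialophosphoprotein, was at 186 ± 59.8 CPM without and 321 ± 60.5 CPM with the knockout (log2 fold change 0.78, SE 0.21, adjusted p = 0.15 in edgeR). Pcolce, an enhancer of the procollagen proteinase, was at 374 ± 134 and 601 ± 111 CPM (adjusted p = 0.21 in edgeR). Bmp1, the proteinase that cleaves Dspp and Dmp1, was at 441 ± 20.8 and 519 ± 18.6 CPM (log2 fold change 0.23, adjusted p = 0.33 in edgeR), and the kinase Fam20c at 157 ± 21.8 and 179 ± 16.8 CPM (log2 fold change 0.19). All KO values lay above all WT values for Bmp1, as for 2 of the 16 listed genes and 5.5% of all tested genes. Bmp1 and Fam20c were named after their values were seen.

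The 10 receptor genes, integrin subunits and Cd44, had 3 members above and 7 below 0, with a median log2 fold change of -0.15. By edgeR, DESeq2 or limma voom 0 passed. At an unadjusted p of 0.05 in edgeR 2 were higher and 1 lower, against 8.7% and 6.98% of all tested genes. Itga5, the alpha chain of the fibronectin receptor, was at 36.4 ± 0.268 and 44.97 ± 4.28 CPM (log2 fold change 0.30, SE 0.10, adjusted p = 0.21 in edgeR). Itgb6, an epithelial beta chain that enamel needs, was at 73.8 ± 15.3 and 43.7 ± 18.1 CPM (log2 fold change -0.76, SE 0.26, adjusted p = 0.22).

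Of 15 transcription factors of odontoblasts and osteoblasts, 12 lay above and 3 below 0, with a median of 0.12, and 0 passed in edgeR (3 higher at an unadjusted p of 0.05). Over all tested genes 8.7% were higher at that mark. Dlx5 was called by DESeq2 and by limma voom, which called 2.46% and 6.57% of all genes. Dlx5, a homeobox activator of bone matrix genes, was at 23.2 ± 2.62 (WT) and 34.8 ± 3.81 CPM (KO) with groups apart (log2 fold change 0.59, SE 0.12, adjusted p = 0.089 in edgeR). Of the 15, 3 had all KO values above and 1 all KO values below the WT values, against 5.5% and 5.44% of all tested genes.

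Among 11 regulators of mineral and phosphate, 8 were tested, 6 above and 2 below 0, with a median of 0.26. At an unadjusted p of 0.05 in edgeR 4 were higher and 1 lower, against 8.7% and 6.98% of all tested genes. All KO values lay above all WT values for 2 of the 8, against 5.5% of all tested genes. In edgeR 1 passed the adjusted threshold, higher in KO, against 0.0309% of all tested genes in either direction. That was Smpd3, the neutral sphingomyelinase of mineralising tissue, at 40.3 ± 3.78 (WT) and 67.0 ± 2.85 CPM (KO; log2 fold change 0.73, SE 0.10, adjusted p = 0.040 in edgeR). Its count is uncertain because Prmt7 overlaps it with 50.1% as many reads, and it failed to pass in 10 of 18 other settings. These were DESeq2 size factors, library totals, the replicate block and the GC and length offsets in edgeR, and the fits without WT 2, WT 3, WT 5, KO 1, KO 3 or KO 4. DESeq2 and limma voom each called 3, with Ank and Smpd3 higher and Enpp1 lower. A list of 8 relatives of the SIBLING genes held other secretory calcium-binding phosphoprotein genes, and Sparc and Sparcl1 of the related SPARC family. It had 5 above and 3 below 0 and a median of 0.31, with 0 past the threshold in edgeR and 1 higher at an unadjusted p of 0.05. DESeq2 called Odaph, and limma voom called Odaph and Sparc. For comparison, 8.7% of all tested genes were higher at that unadjusted p, and DESeq2 called 2.46% and limma voom 6.57%. Odaph, an enamel maturation gene, was at 34.1 ± 6.61 and 70.3 ± 19.2 CPM with groups apart (log2 fold change 1.04, SE 0.20, adjusted p = 0.080 in edgeR), and Sparc, the osteonectin gene, at 7004 ± 2303 and 9743 ± 1573 CPM (log2 fold change 0.48, adjusted p = 0.33). In this list 1 gene had all KO values above and 1 all KO values below the WT values, against 5.5% and 5.44% of all tested genes. The signs of these 5 medians were the same under the other 3 scalings.

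**Figure D5:**
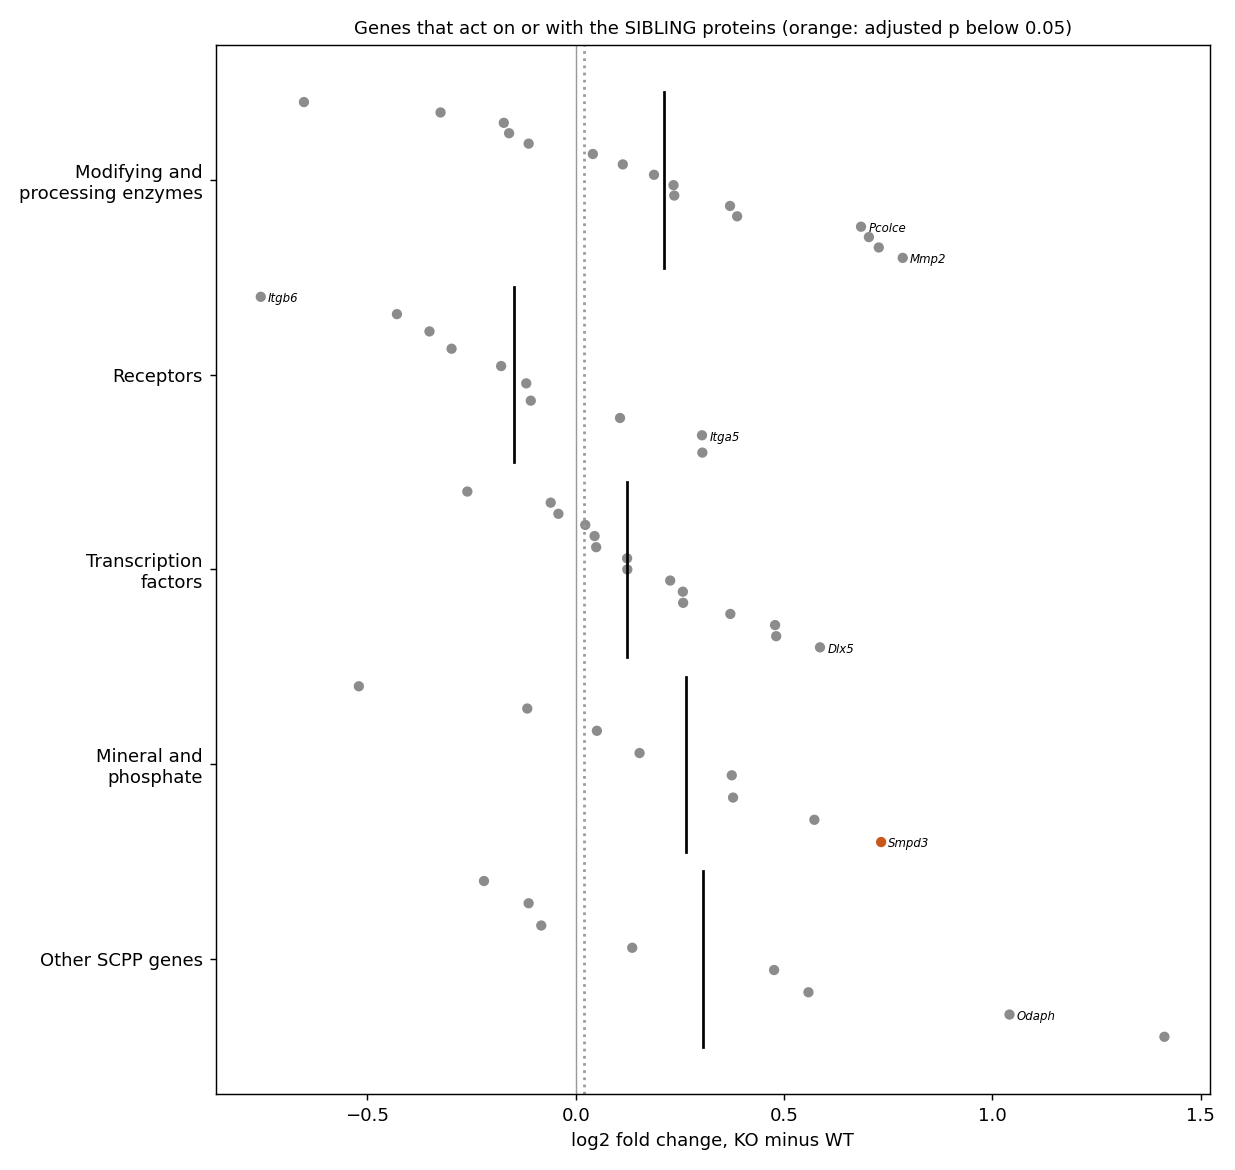
Log2 fold change of KO minus WT for each tested gene of 5 lists, with a black bar at the list median, a dotted line at the median of all tested genes, and names on 7 genes with an unadjusted p under 0.05 whose CPM the text gives. Smpd3 is the single orange point, and the receptor list alone has its median below 0, at -0.15. The list labelled Other SCPP genes (secretory calcium-binding phosphoprotein genes) also holds Sparc and Sparcl1 of the SPARC family.

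Within 500 kb of the cluster there were 24 other genes, of which 13 were tested and 0 passed in edgeR. At an unadjusted p of 0.05 there were 0 higher and 2 lower, against 8.7% and 6.98% of all tested genes. The log2 fold changes of the 13 ran from -0.87 to 0.18. On the Spp1 side, the next gene, Pkd2, a cation channel, was at 92.5 ± 9.83 CPM in the WT and 83.3 ± 16.9 CPM in the KO libraries (log2 fold change -0.15, adjusted p = 0.63 in edgeR). BC005561 was lower in each KO library, as were 5.44% of all tested genes, at 20.03 ± 1.61 and 11.95 ± 4.58 CPM (log2 fold change -0.74, adjusted p = 0.20 in edgeR). On the Dspp side, Gm26703 had a log2 fold change of -0.65 and lies over Sparcl1 on the opposite strand, and Gm43333 had -0.87 and lies over Gm17660, so both counts are uncertain. By comparison, Ibsp and Spp1, which did not pass either, had log2 fold changes of 0.43 and 0.45.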

How the data were processed

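The authors deposited 1 table of counts, whole numbers of reads per Ensembl gene that were not normalised, with gene lengths. Libraries were made from polyA RNA, per the labels. CASAVA and mm39 appear in the submitters' processing notes. Not given in the sources used here: aligner, counting program and strand setting. Coordinates in the table were those of GRCm38: 54409 of its 54532 gene IDs matched GENCODE M21, with an identical start for 98.8%.

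The filterByExpr function (count at least 10, total at least 15) kept 16205 genes, and Mepe was fitted with no filter. The contrast of KO and WT used the two-sided quasi-likelihood test of edgeR 4.0.16 (R 4.3.3) with TMM scaling and robust fitting, and p-values were adjusted by Benjamini-Hochberg across every gene kept. Each SE was derived from the fold change and its F statistic. CPM are relative to the TMM-scaled totals. Exact permutation tests used log2 of CPM plus 0.1, or read ratios with 0.5 added to each count. The edgeR, DESeq2 and limma voom fits were tested on simulated counts.

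Alternatives were DESeq2 1.42.0, limma 3.58.1 voom, other scalings and filters, a replicate block, libraries left out, and, chosen after seeing the data, offsets for GC content and length. The members, lists and tests were chosen with earlier results of these data known. The rule for named genes took all members, from each pathway list the genes past the threshold or else the 2 with the smallest p, from each marker list the most abundant gene and that with the smallest p, the 2 nearest and the 2 smallest-p genes of the region, and 3 like genes per member. Not every marker gene is printed, and 1 gene that the rule names is not reported here.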

Additional observations from a re-analysis of the deposited data

Results flagged for a closer look

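Among 30 sets of 4 libraries checked for a value far from the others (levels and ratios of members), 2 held one, where chance gives about 1 in 20 sets. Both were WT 5. The log2 ratio of Dmp1 to Spp1 reads was 0.45 in WT 5, against -1.29, -1.04 and -1.28 in WT 2, 3 and 4, so WT 5 had more Dmp1 than Spp1 reads and the other 7 libraries fewer. The log2 ratio of Ibsp to Spp1 reads was 1.75 in WT 5, against 0.44, 0.50 and 0.33 in WT 2, 3 and 4. The same library was the lowest for Spp1, at 62.8 CPM, and the lowest for the summed osteoclast markers, at 270 CPM.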

How the results depend on the processing

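No member passed an adjusted p of 0.05 in edgeR's quasi-likelihood test under any scaling, filter or set of libraries run; at an unadjusted p of 0.05 the main test gave 1 member, Ibsp. Limma voom called 1 member, Ibsp, at a log2 fold change of 0.42 (adjusted p = 0.044), and DESeq2 called 0. Over all genes, against 5 in edgeR, 2 changed with library totals only, 241 with no filter, 419 by DESeq2, 1065 by limma voom, 11 without KO 1 and KO 5 together and 21 with GC and length offsets, and 0 to 55 with 1 library left out (0 without WT 2, WT 3, KO 3 or KO 4, at 1744, 1720, 3139 and 2622 genes with an unadjusted p of 0.05). The replicate numbers 3, 4 and 5 are in both groups. Deviations of same-numbered libraries from their group means correlated at r = -0.14, -0.092 and -0.12. These values cannot show whether a litter or batch was shared, and what a shared number marks is not stated. With the replicate block 1 gene changed, and the log2 fold changes were -0.081 for Dspp, -0.029 for Dmp1, 0.46 for Ibsp, 0.33 for Mepe and 0.65 for Spp1, with 0 called. Number 1 is only in KO and number 2 only in WT, so KO 1 and WT 2 add nothing to that contrast. The block fit thus compares the groups within numbers 3, 4 and 5 alone and has less power than the main test.

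Several signs turned, also of ratios and correlations between abundant members, and the cause was not tested. By voom the log2 fold change was 0.35 for Dspp and 0.058 for Dmp1. Without KO 1 and KO 5 together it was 0.24 for Dspp and -0.47 for Mepe. With 1 library left out it ran from -0.27 to 0.23 for Dspp and from -0.12 to 0.098 for Dmp1. The log2 ratio, KO minus WT, then ran from -0.17 to 0.14 for Dspp to Dmp1, from -0.48 to 0.19 for Ibsp to Mepe, from -0.23 to 0.25 for Ibsp to Spp1, from -0.18 to 0.27 for Mepe to Spp1, from -0.36 to 0.022 for Ibsp to Col1a1, from -0.55 to 0.45 for Mepe to Col1a1 and from -0.56 to 0.21 for Spp1 to Col1a1. Without KO 1 and KO 5 together it was 0.34 for Dspp to Dmp1, 0.63 for Dspp to Mepe, 0.034 for Dspp to Spp1, 0.29 for Dmp1 to Mepe, 0.64 for Ibsp to Mepe, 0.040 for Ibsp to Spp1, -0.60 for Mepe to Spp1 and -1.06 for Mepe to Col1a1. Dmp1 to Ibsp stayed at -0.50 to -0.36, and Dspp to Col1a1 at -0.66 to -0.47, with 1 library left out. Without the 2 libraries farthest from the median, r was -0.68 for Dspp and Dmp1, 0.13 for Dmp1 and Mepe and 0.24 for Dmp1 and Spp1. Centred within groups, r was -0.90 for Dspp and Spp1, with an adjusted p of 0.013 from a permutation that was not exact. Depth limits Mepe, at 3 to 20 reads a library.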
